A study of Homo sapiens with 8 samples.

Results

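UW228, a medulloblastoma line that the labels place in the SHH subtype, was set against MB002, D425 and HDMB03, which they place in the Group 3 subtype, by the H3K27ac signal of enhancers across the genome. All 20875 enhancer regions of UW228 were used, out of 88550 regions in the 4 lines, and they were matched to the 26072 regions of MB002, the 26317 of D425 and the 15286 of HDMB03 by an overlap of at least 1 bp in GRCh38. Regions of any line that overlapped were joined, which gave 54584 loci. Each line had 1 H3K27ac ChIP-seq library and 1 input library, all from untreated cells, with no replicate, so no value has a spread between replicates, no test was run, and each difference describes these libraries. D425 and, per the methods of the study, UW228 were grown in DMEM with fetal bovine serum, whereas MB002 and HDMB03 were grown in a serum-free stem cell medium with EGF, FGF and LIF. The headers give the UW228 regions a later processing run than those of the 3 Group 3 lines. UW228 is the single line outside Group 3, so its subtype, the line itself and that run cannot be told apart.

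H3K27ac, the acetylation of lysine 27 on histone H3, marks the nucleosomes beside active enhancers and promoters, and a stitched enhancer joins neighbouring peaks of the mark. In Group 3 medulloblastoma, the homeobox factors OTX2 and CRX and the proneural factor NEUROD1 are known regulators of a photoreceptor-like and neuronal programme, often beside a gain of *MYC*. SHH medulloblastoma arises from granule neuron precursors, in which Hedgehog signalling frees the GLI factors to activate *GLI1* and *PTCH1*. AP-1 and TEAD factors, the latter with the coactivators YAP and TAZ, are known to act at the enhancers of mesenchymal and other adherent cells.

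The signal of a region was its deposited H3K27ac value minus its input value, with 0 as the floor, divided by the median over the regions of its line, so that 1 is the median enhancer of that line. A locus had, in each line, the summed signal of its regions, and 0 where the line had no region. A signal of at least 10 was called strong and one of at most 1 weak. These values do not show how deeply the libraries were sequenced. Before this division, the median net signal was 1690 in UW228 against 890 in MB002, 717 in D425 and 846 in HDMB03. The strongest region of UW228 reached 217, against 1367 in MB002, 1318 in D425 and 524 in HDMB03, and 6.55% of its regions were strong, against 9.56% to 10.2% in the Group 3 lines. A line with no region at a locus has no input value there, so a lost locus, a promoter peak that the study's method left out and an inactive enhancer cannot be told apart.

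Sequences of the regions at the extremes are shown first, because the motif counts further on are made from windows of this kind. They are the central 300 bp of single-peak regions, in GRCh38, on the plus strand and 5′ to 3′. Capitals mark 5 motifs on either strand, which are TGANTCA (bound by AP-1), GGAATG (TEAD), TAATCC (OTX and CRX), CAGATG (a proneural E-box) and GGGCGG (the GC box). None of the 5 contains another. Regions on chromosomes 8 and 18, and regions whose window overlapped an annotated exon, were left out before the strongest were chosen. Among the 3 strongest single-peak regions of UW228 left that no Group 3 line shared, the one shown lay 9.53 kb from the start of *PHLDA3*, a p53 target (chr1:201459361-201459660). The others below, at chr6:23621125-23621424, 505 kb from the start of *NRSN1*, and in an intron of *CREG1*, a gene for a secreted glycoprotein (chr1:167548460-167548759), were added after the values were seen as the strongest such regions of at most 2 kb that held an AP-1 motif.
UW228 near PHLDA3: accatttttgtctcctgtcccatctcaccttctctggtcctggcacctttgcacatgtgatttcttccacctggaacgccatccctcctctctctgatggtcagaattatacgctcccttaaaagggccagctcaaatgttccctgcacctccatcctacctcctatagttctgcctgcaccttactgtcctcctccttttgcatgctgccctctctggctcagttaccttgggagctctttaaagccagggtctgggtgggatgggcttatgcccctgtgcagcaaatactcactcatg
UW228 near NRSN1: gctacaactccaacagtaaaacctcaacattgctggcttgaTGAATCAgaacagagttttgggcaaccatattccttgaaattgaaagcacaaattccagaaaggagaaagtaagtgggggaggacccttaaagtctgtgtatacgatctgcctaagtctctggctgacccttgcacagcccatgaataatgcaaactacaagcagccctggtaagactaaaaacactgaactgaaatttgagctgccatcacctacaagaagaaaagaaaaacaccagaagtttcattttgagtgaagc
UW228 in CREG1: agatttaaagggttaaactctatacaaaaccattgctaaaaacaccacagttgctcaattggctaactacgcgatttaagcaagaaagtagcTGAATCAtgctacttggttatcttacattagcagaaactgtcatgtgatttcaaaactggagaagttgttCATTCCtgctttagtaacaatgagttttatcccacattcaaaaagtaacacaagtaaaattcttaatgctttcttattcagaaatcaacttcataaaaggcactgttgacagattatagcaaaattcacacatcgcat

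The signals of these regions in UW228 were 18.2, 2.32 and 2.17, and no Group 3 line had a region there. The *PHLDA3* window held none of the 5 motifs. The *NRSN1* window held 1 AP-1 motif, and the *CREG1* window 1 AP-1 motif and 1 TEAD motif.

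The same regions were left out at loci shared by the 3 Group 3 lines and absent from UW228. Of the 3 strongest single-peak regions left there, those shown lay in an intron of *OTX2* (chr14:56808666-56808965) and 1.16 kb from the start of *PIM3*, a kinase gene (chr22:49959314-49959613). Before the *PIM3* region, 2 stronger ones were passed over because their window overlapped an exon. The window in an intron of *ASIC4*, an ion channel gene (chr2:219529659-219529958), was added after the values were seen as one that held an E-box.
Group 3 in OTX2: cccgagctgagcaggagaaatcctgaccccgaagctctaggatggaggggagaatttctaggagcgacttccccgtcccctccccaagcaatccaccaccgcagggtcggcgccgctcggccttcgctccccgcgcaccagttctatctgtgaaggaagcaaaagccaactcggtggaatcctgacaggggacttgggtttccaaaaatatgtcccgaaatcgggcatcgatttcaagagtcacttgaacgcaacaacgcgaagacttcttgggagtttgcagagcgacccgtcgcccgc
Group 3 near PIM3: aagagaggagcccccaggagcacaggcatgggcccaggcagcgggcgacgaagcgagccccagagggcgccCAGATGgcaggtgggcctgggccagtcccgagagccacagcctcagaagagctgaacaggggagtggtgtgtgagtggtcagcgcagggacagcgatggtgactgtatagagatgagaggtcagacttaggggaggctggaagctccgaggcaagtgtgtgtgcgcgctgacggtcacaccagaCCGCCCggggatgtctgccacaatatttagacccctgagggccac
Group 3 in ASIC4: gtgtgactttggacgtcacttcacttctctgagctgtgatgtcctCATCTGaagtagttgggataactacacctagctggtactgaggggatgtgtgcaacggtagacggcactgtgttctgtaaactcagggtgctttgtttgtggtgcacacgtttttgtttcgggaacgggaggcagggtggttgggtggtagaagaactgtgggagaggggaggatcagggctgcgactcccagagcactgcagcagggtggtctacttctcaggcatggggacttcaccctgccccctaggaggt

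The *OTX2* window held none of the 5 motifs, the *PIM3* window 1 E-box and 1 GC box, and the *ASIC4* window 1 E-box. The locus around the *OTX2* window had a signal of 733 in MB002, 354 in D425, 208 in HDMB03 and 0 in UW228. The locus around the *PIM3* window had 0.134, 78.8, 18.7 and 0, so it was weak in MB002, and the one around the *ASIC4* window had 138, 33.7, 43.6 and 0. The regions that hold the windows had signals of their own of 354 in D425 for *OTX2*, 67.6 in D425 for *PIM3* and 1.38 in MB002 for *ASIC4*, so the last is a weak part of a strong locus.

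Most regions of UW228 had no counterpart in a given Group 3 line. The share without an overlapping region was 75.3% against MB002 (exact 95% binomial interval, counting error alone, 74.7 to 75.9), 70.0% against D425 (69.4 to 70.6) and 81.3% against HDMB03 (80.8 to 81.9), and 57.5% overlapped a region of none of the 3. Between pairs of Group 3 lines this share was 38.8% to 70.1%, the highest for D425 regions against HDMB03, so that of UW228 against D425 lay within the range. The share of regions found in no other line was 40.3% in MB002, 40.3% in D425 and 25.4% in HDMB03, each of which had further Group 3 lines to match. The regions unmatched in UW228 were the weaker ones, with a median signal of 0.631 against 1.95 for those that overlapped a Group 3 region. They held 31.3% of the summed signal of UW228 and 87 of its 753 super-enhancers (SEs), as the study called them.

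Of the Group 3 lines, D425 shared the most of the strong loci of UW228, and it also had the most strong loci, 2699 against 2494 in MB002 and 1483 in HDMB03. Of the 1396 loci strong in UW228, 30.1% were strong in D425, 20.3% in MB002 and 15.8% in HDMB03. D425 was the single Group 3 line to share 187 of them, MB002 62 and HDMB03 46, and 118 were strong in all 4 lines. Conversely, 41.7% of them were weak or absent in D425, 51.4% in MB002 and 61.3% in HDMB03. Read from the other side, UW228 was strong at 15.6% of the strong loci of D425, 14.8% of those of HDMB03 and 11.3% of those of MB002, so D425 and HDMB03 were alike there. D425 is also the Group 3 line that was grown in serum, as UW228 was, and the part of the medium in this was not tested.

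At 411 loci, UW228 was strong and all 3 Group 3 lines were weak or had no region. These were 29.4% of the strong loci of UW228 and 0.753% of all loci, and at 244 of them no Group 3 line had any region. The reverse was found at 184 loci, which were 0.337% of all loci and 38.9% of the 473 loci strong in all 3 Group 3 lines, and at 122 of them UW228 had no region. The requirement that all 3 lines pass made the second count the stricter, so the counts are not a measure of which side has more enhancers. Just below the limit, 887 loci had a UW228 signal of 5 to 10 with all Group 3 lines weak, and 341 had a lowest Group 3 signal of 5 to 10 with UW228 weak. With all 4 lines divided by the UW228 median alone, a scaling added after the data were seen, the counts were 526 and 52. With MB002, D425 or HDMB03 left out in turn, the UW228 loci were 504, 651 and 456 and the Group 3 loci 280, 355 and 537.

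**Figure D1:**
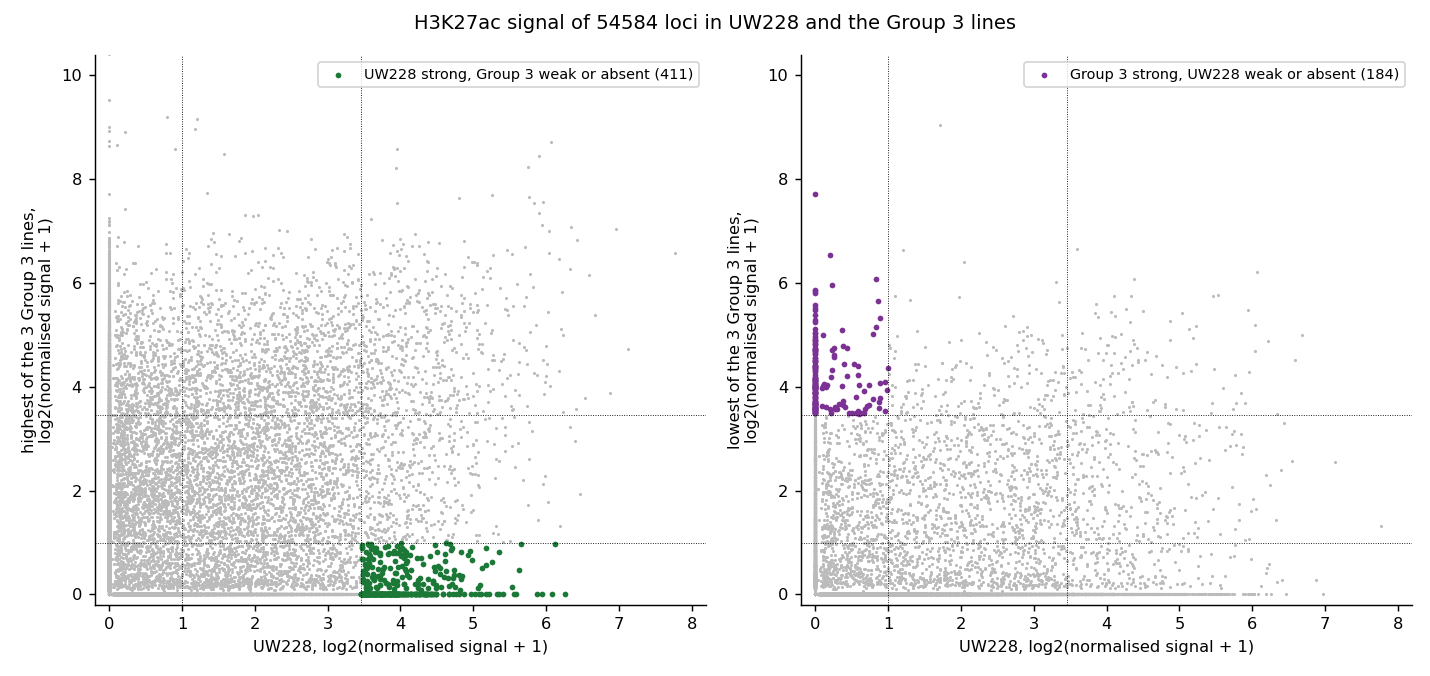
Each point is 1 of 54584 loci, with the log2 of the normalised signal plus 1 in UW228 on the horizontal axes and in the highest (left) or lowest (right) of the 3 Group 3 lines on the vertical axes. Dotted lines mark signals of 1 and 10. The 411 coloured loci on the left were strong in UW228 and at most 1 in every Group 3 line, and the 184 on the right were the reverse.

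The 2 sets of loci differed in where they lay. The 411 UW228 loci had a median length of 26.4 kb and a median distance of 50.4 kb to the closest transcription start site (TSS), 69 covered a TSS, and 125 had one within 2.5 kb. The 184 Group 3 loci had a median length of 34.4 kb and a median distance of 1.95 kb, 88 covered a TSS, and 112 had one within 2.5 kb. The methods of the study leave promoter flanks out, yet 1295 of the UW228 regions covered a TSS and 1337 more (6.4%) lay within 2.5 kb of one, against 3.25% to 3.63% of the regions in the Group 3 lines. With loci near a TSS left out, after the data were seen, 286 UW228 loci and 72 Group 3 loci were left. The Group 3 loci had to be strong in 3 lines at once, and regions shared by all lines covered a TSS more often. For regions of UW228 itself, the share was 13.6% at loci of all 4 lines and 2.66% at loci of UW228 alone. In the Group 3 lines it was 15.0% to 16.3% at loci of all 4 lines and 6.99% to 9.25% at loci of the 3 without UW228. The distances above therefore cannot be read as a difference between the lines alone.

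The strongest UW228 loci lay mostly between genes. The first was in the gene body of *TPRG1*, 268 kb upstream of *TP63*, the p53 family factor of epithelial stem cells (chr3:189267111-189328467), with a UW228 signal of 75.7 over 13 peaks and 0 in all 3 Group 3 lines. Its input density was 2.36 times the median of the line, which is above the 1.17 that was the median of all 411 loci. The locus 691 kb downstream of *RFPL4B* followed (chr6:113038452-113124671), with 68.6 in UW228, 0.310 in MB002, 0.124 in D425 and 0.968 in HDMB03. The locus 44.1 kb upstream of *PCED1B* (chr12:46904179-47035477) reached 66.4 in UW228 and 0 in the 3 others.

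The locus over the start of *TPD52L1* (chr6:125140417-125234432) had 57.6 in UW228 and 0 in every Group 3 line. The locus 60.9 kb downstream of *OGFRL1* (chr6:71349731-71419987) had 49.4 in UW228 and at most 0.969, in MB002. The locus in *DSE*, which encodes a dermatan sulfate epimerase, 41.9 kb upstream of *CALHM6* (chr6:116352339-116419502), had 48.4 in UW228 and 0.377 in MB002. *RNF217*, an E3 ubiquitin ligase gene, had 47.0 at a locus over its start (chr6:124958337-125016378). The locus 148 kb upstream of *CAMK1G*, a calcium-dependent kinase gene (chr1:209354507-209436045), had 46.1, and the one 30.9 kb downstream of *COPS8*, a COP9 signalosome subunit gene (chr2:237116765-237238964), had 45.3. *PADI1*, a peptidylarginine deiminase gene, had 41.6 over its start (chr1:17161532-17238187), and the locus 171 kb upstream of *KRR1*, a ribosome assembly gene (chr12:75682787-75793154), had 39.9. All 12 strongest loci were SEs in UW228, and 7 of them had no region in any Group 3 line.

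Of these 12 loci, 6 lay on chromosome 6. That chromosome held 54 of the 411 loci (13.1%) against 7.0% of all UW228 regions, and 42.9% of its 126 strong UW228 loci were weak or absent in all Group 3 lines. The median input density of the UW228 regions on chromosome 6 was 1.36 times that of the line, the highest of any chromosome, and that of its 54 loci was 1.42 against 1.11 at the other 357. With every region divided by the relative input within 500 kb, 32 of the 54 loci on chromosome 6 and 264 of the 357 elsewhere were still called, and the 5 of them named above had 33.7 to 47.6 in UW228. Of those 5, the *OGFRL1* locus no longer passed, since MB002 had 1.11 there. The *TP63* locus had 37.9 on that scale.

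The Group 3 locus with the highest signal in the lowest of the 3 lines lay over *OTX2* (chr14:56793824-56822537) had 733 in MB002, 354 in D425 and 208 in HDMB03, and UW228 had no region there. Input densities at it were 35.2, 53.3 and 5.84 times the median of the line in MB002, D425 and HDMB03, so input was raised in all 3 lines, though most in D425, which did not have the highest signal. Divided by the relative input within 500 kb, it had 23.8 in MB002, 176 in D425, 33.1 in HDMB03 and 0 in UW228, which keeps it strong in all 3 but turns the order of MB002 and D425. The last of the 12 by that order, 87.2 kb upstream of *MYC*, the growth factor-responsive oncogene (chr8:127619244-127648227), is given here for its input. It had 512, 112 and 40.8, with 0 in UW228 and input densities of 36.2, 45.4 and 30.6. On the scale of local input it had 21.4, 37.4 and 32.2. Of the 184 loci, 24 had an input density above 2 in some Group 3 line and 3 had one above 5, and 140 of the 184 were still called with local input.

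In the Group 3 lines, input densities at the other 10 leading loci were 0.539 to 1.81 times the median of the line, and those above 1.5 were all from D425. At *CORO2B*, a coronin gene of the actin cortex (chr15:68559118-68714128), the signal was 92.3 in MB002, 109 in D425, 103 in HDMB03 and 0.152 in UW228. *PTMA*, which encodes the nuclear protein prothymosin alpha (chr2:231659703-231718128), had 85.7, 94.3 and 66.8, with 0.789 in UW228, at a locus over its start. With local input UW228 had 1.39 at *PTMA*, and the locus no longer passed. *PRKCE*, a protein kinase C gene (chr2:45859911-45939579), had 76.5, 61.2 and 70.1 inside its body, with 0.175 in UW228. *TSPAN9*, a tetraspanin gene (chr12:3199341-3253842), had 87.3, 63.6 and 56.9, and UW228 had no region there.

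The locus over *CERKL* and *NEUROD1* (chr2:181612937-181694224) had 44.6 in MB002, 50.8 in D425 and 109 in HDMB03, and UW228 had none. *CASZ1*, a zinc finger gene of retinal and other lineages (chr1:10624242-10735081), had 93.7, 47.0 and 84.9 and no region in UW228. *TBC1D24* (chr16:2465446-2503104) had 56.5, 77.1 and 58.8, and the locus 87.6 kb upstream of *MSRA*, a methionine sulfoxide reductase gene (chr8:9896241-9966690), had 102.8, 75.6 and 55.1, both with 0 in UW228. *BRD2*, which encodes a bromodomain reader of acetylated histones, had 43.8, 57.9 and 47.3 at a locus of 16.3 kb over its start (chr6:32967135-32983441), with 0 in UW228. The locus in *CHN2*, 28.6 kb upstream of *CPVL* (chr7:29224039-29299290), had 54.8, 63.0 and 49.5, with 0.820 in UW228. Of these 12 loci, 11 were SEs in all 3 Group 3 lines, and 8 had no region in UW228.

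**Figure D2:**
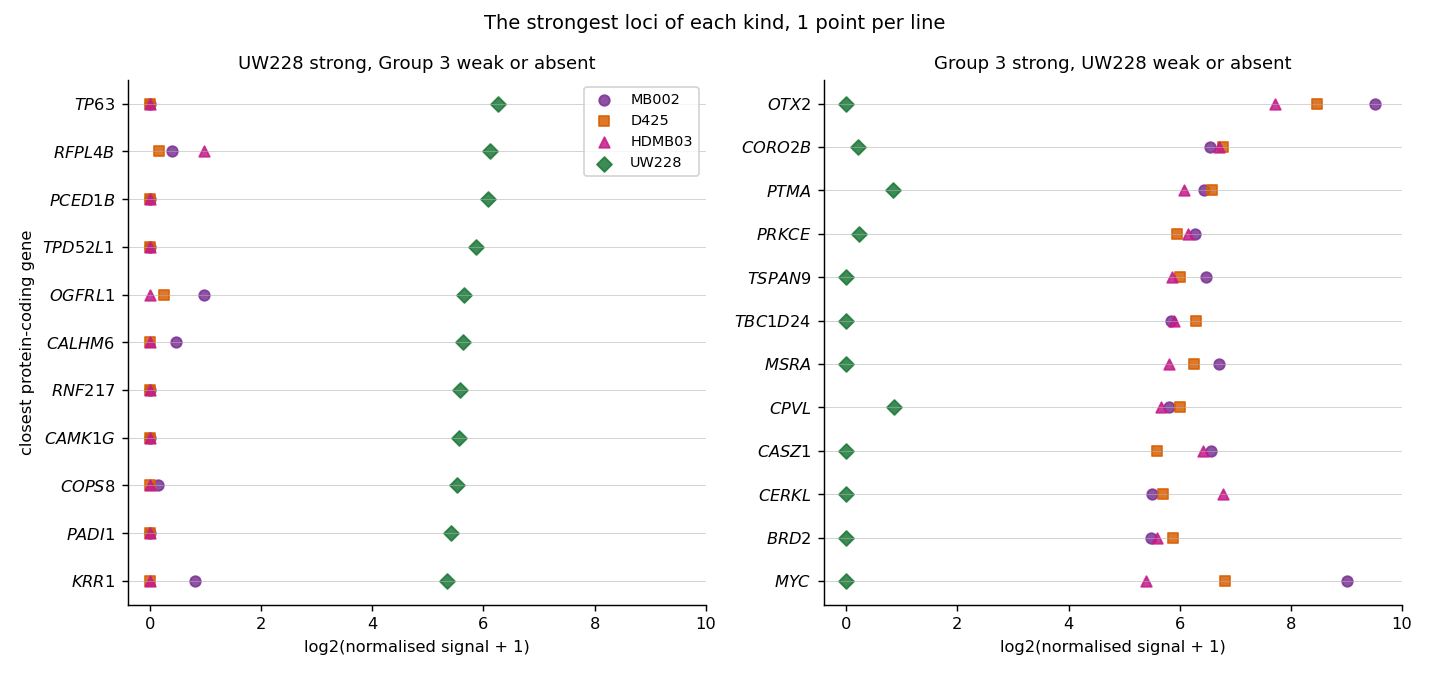
The named loci among the 12 of each kind with the highest UW228 signal (left) or the highest of the lowest Group 3 signals (right), labelled by the closest protein-coding gene, with 1 point for each line at the log2 of its normalised signal plus 1. On the left UW228 sits at 39.9 to 75.7 before the log and every Group 3 line at 0.969 or below. On the right UW228 sits at 0.820 or below.

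Genes were compared by the best enhancer that each line had for them. A gene was given an enhancer that overlapped its body, lay within 50 kb of its TSS, or had that TSS as the closest. It was called where the log2 of the signal plus 1 differed by at least 2 from every Group 3 line, which is 4 times on that scale. Of 24138 genes with an enhancer in some line, 1045 (4.33%) were higher in UW228 and 1568 (6.50%) were lower. This split depended on the scaling and on the assignment. It was 1671 against 643 with the UW228 median as the divisor of all lines, and 937 against 628 with each enhancer given to the closest TSS alone. Over all these genes, the median log2 difference between UW228 and the median Group 3 line was -0.18, and it was 0 with the common divisor.

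Enhancers of *GLI1*, *PTCH1* and *ATOH1*, which mark the SHH subgroup, were weak or absent in UW228, which goes against its label. *GLI1*, the transcriptional output of Hedgehog signalling, had 11.8 in MB002, 36.4 in D425, 32.8 in HDMB03 and 0.848 in UW228, at a small region 28.1 kb from its start, and was called lower. It no longer passed with one divisor for all lines, with the closest TSS alone or with no TSS within 2.5 kb. *PTCH1*, the Hedgehog receptor and a direct GLI target, had 8.63, 4.74, 53.6 and 0.542, and did not pass the limit. *GLI2*, the main activator, had 12.3, 0.130, 11.7 and 1.56, so UW228 lay between D425 and the other lines. *ATOH1*, the identity factor of granule neuron precursors, had 1.45, 0, 1.97 and 0. Of the 18 genes of the SHH and Hedgehog list, 2 (11.1%) were higher in UW228 and 2 were lower, against 4.33% and 6.50% of all genes, and none was lower under those 3 alternatives. *GLI3*, mainly a repressor, was higher with 5.32, and *SFRP1*, a secreted WNT inhibitor and SHH subgroup marker, with 4.66, both against 0 in every Group 3 line. *ZIC1*, a cerebellar progenitor factor, was lower with 9.86, 9.24, 7.42 and 0.881. The line is therefore named by itself below.

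Of 19 genes of the Group 3 and photoreceptor list, 4 (21.1%) were lower in UW228 and 1 was higher, against 6.50% and 4.33% of all genes. With enhancers within 2.5 kb of a TSS left out, 2 were lower. *CRX*, a photoreceptor homeobox factor, had 75.1 in MB002, 78.1 in D425, 10.3 in HDMB03 and 0 in UW228, and *NRL*, the rod leucine zipper factor, 8.46, 26.6, 17.8 and 0. *IMPG2*, which encodes a proteoglycan around photoreceptors, had 34.9, 22.6, 34.5 and 0.242. *NPR3*, a natriuretic peptide receptor gene that is used as a Group 3 marker, went the other way, with 0 in all 3 Group 3 lines and 11.6 in UW228.

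Among 23 neuronal and rhombic lip transcription factor genes with an enhancer, 8 (34.8%) were lower in UW228 and none was higher, against 6.50% and 4.33% of all genes. *NEUROD1* had 44.6 in MB002, 33.7 in D425, 60.3 in HDMB03 and 0.339 in UW228. *NEUROG1*, its upstream relative, had 25.2, 24.6, 32.5 and 0.288, *NHLH1*, a helix-loop-helix factor of young neurons, 41.8, 15.2, 22.97 and 0, and *LMX1A*, a rhombic lip factor, 30.3, 14.1, 13.2 and 0. No gene of the list was strong in UW228, and 13 had no region there. Of the genes for synapse proteins and channels, 1 of 24 was lower (*STMN4*, with 3.24, 3.14, 6.74 and 0) and 1 was higher (*CACNA1A*, a calcium channel, with 0, 1.20, 0 and 10.49). By any amount, 11 of these 24 genes lay below all 3 Group 3 lines, as did 10 of the 23 factor genes and 7155 of all 24138. With enhancers within 2.5 kb of a TSS left out, 3 of the factor genes were lower (762 of all genes), and with the closest TSS alone 4 were (628 of all genes).

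Of 28 genes of mesenchymal matrix and adhesion, 6 (21.4%) were higher in UW228 than in every Group 3 line and none was lower, against 4.33% and 6.50% of all genes. By any amount, 19 of the 28 were above all 3 lines, as were 5115 of all 24138. *COL3A1*, a fibrillar collagen gene, had 0.718 in MB002, 0.552 in D425, 0 in HDMB03 and 17.6 in UW228. *VIM*, the mesenchymal intermediate filament gene, had 0.0989, 1.15, 0.154 and 20.9, and *COL6A3*, a microfibrillar collagen gene, 2.42, 0, 2.71 and 31.6. *CD44*, the hyaluronan receptor gene, had 1.41, 0, 2.33 and 25.8, at an SE of UW228 0.494 kb inside the start of the gene. The rest of the 6 were *THBS1* and *ITGB1*, and with the closest TSS alone *ITGB1* lay below the Group 3 lines, at a log2 difference of -0.26. *COL1A1*, the main collagen of connective tissue, was not of this kind, with 31.2, 3.82, 12.2 and 8.17. With enhancers within 2.5 kb of a TSS left out, 2 of the list were higher (743 of all genes), and with the closest TSS alone 3 were (937 of all genes).

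Of 22 transcription factor genes of mesenchyme, 3 (13.6%) were higher and none was lower, against 4.33% and 6.50% of all genes. *RUNX2*, the osteoblast factor, had 0.185 in MB002, 0.703 in D425, 0 in HDMB03 and 14.6 in UW228, *RUNX1*, its blood relative, 0, 1.65, 0 and 13.9, and *SNAI2*, an inducer of mesenchymal transition, 0, 0, 0.631 and 5.72. The factors *TWIST1*, *ZEB1* and *PRRX1*, named after their values were seen, did not pass. *PRRX1* was strong in all 4 lines, with 34.4, 11.7, 20.4 and 28.6.

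Of 20 genes of the YAP and TEAD pathway, 3 (15%) were higher in UW228 than in all 3 Group 3 lines and none was lower, against 4.33% and 6.50% of all genes. Against MB002 and HDMB03 alone, 7 were higher, when 7.61% of all genes were. *WWTR1*, which encodes the coactivator TAZ, had 0.338 in MB002, 6.64 in D425, 4.93 in HDMB03 and 55.2 in UW228. *F3*, the tissue factor gene, had 0.306, 1.31, 0 and 23.7, and *AXL*, a receptor kinase gene and YAP target, had 5.91 in UW228 and no region in the others. The classical targets *CCN1* and *CCN2* were not called, with 3.72, 10.1, 0.321 and 21.8 for the first and 0, 12.4, 0 and 3.30 for the second. *CCN2* was thus higher in D425 than in UW228, and *ANKRD1* likewise, with 1.97, 34.3, 0 and 19.7.

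Of 17 TGF-beta and SMAD genes, 2 (11.8%) were higher against all 3 lines, beside 4.33% of all genes, and 6 against MB002 and HDMB03, beside 7.61% of all genes. *GREM1*, a secreted BMP antagonist gene, had 0.547 in MB002, 0.492 in D425, 0 in HDMB03 and 37.1 in UW228, at an SE 8.86 kb from its start. *PMEPA1*, a feedback inhibitor gene of SMAD signalling, had 10.3 in UW228 and 0 in the others. *SMAD6*, an inhibitory SMAD gene, had 1.56, 46.3, 0.208 and 14.6, and so was higher in D425 than in UW228. Among 16 NF-kappaB and cytokine genes, *IL6* was higher, with 0.621 in D425, 5.96 in UW228 and 0 in the others, and *IL11*, of the same cytokine family, was lower, with 5.62, 4.55, 8.04 and 0. Without D425, 6 of the 16 were higher, beside 7.61% of all genes.

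Of 22 genes of actin fibres and focal adhesions, none passed as higher in UW228 and 2 (9.09%) were lower, beside 6.50% of all genes, *CNN2* and *FLNA*, which encode actin-binding proteins. Neither was called with one divisor or with the scaling by the 10000 strongest regions, and with the closest TSS alone 3 of the 22 were higher. *FLNA* had 15.2 in MB002, 13.6 in D425, 16.6 in HDMB03 and 2.36 in UW228. *MYH9*, the non-muscle myosin gene, had 0, 162, 2.39 and 50.4, with its highest signal in D425. The summed signal of this list was 731 in D425 and 456 in UW228, against 251 in MB002 and 190 in HDMB03.

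Of 13 genes of the AP-1 factors themselves, none was higher in UW228 and 2 (15.4%) were lower, beside 6.50% of all genes. This direction depended on the settings, since 1 was higher and none lower with one divisor, and 1 was higher and 1 lower with the 10000 strongest regions as the scale, with the closest TSS alone or with no TSS within 2.5 kb. The 2 were *ATF3* with 10.8 in MB002, 17.8 in D425, 48.0 in HDMB03 and 1.08 in UW228, and *FOS* with 6.73, 6.51, 17.0 and 0.766. *FOSL1*, the member most tied to mesenchymal cells, had 21.0, 0.195, 24.3 and 9.97. *JUN* was the one with its highest signal in UW228, at 19.7, against 5.94 in D425.

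Growth control genes differed at the 9p21 locus. Of 12 genes of the retinoblastoma pathway and G1 phase, 3 (25%) were higher in UW228 and none was lower, beside 4.33% and 6.50% of all genes, and with the closest TSS alone only *CDKN2B* was still higher. *CDKN2A*, which encodes the CDK4 and CDK6 inhibitor p16 and the p53 stabiliser ARF, had 21.5 in UW228, at an SE over its start (chr9:21972068-22006791), and 0 in every Group 3 line. *CDKN2B*, its neighbour, had 2.28 in MB002, 7.37 in D425, 0 in HDMB03 and 48.3 in UW228, 71.0 kb from its start. *RB1* had 0, 0.351, 0 and 8.49. The enhancers of *CDKN2B* in MB002 and D425, 129 kb and 71.1 kb from its start, had input densities of 0.911 and 0.816 times the median of the line, and HDMB03 had no region there and so no input value. No Group 3 line has an input value over *CDKN2A* itself.

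Receptor tyrosine kinase genes split, with *AXL* and *PDGFC* higher and *ERBB2* and *ERBB3* lower, of 20 (10% each way, beside 4.33% and 6.50% of all genes). With the closest TSS alone none was lower. *PDGFC*, a platelet-derived growth factor gene, had 12.6 in MB002, 5.36 in D425, 9.93 in HDMB03 and 62.3 in UW228, and *ERBB3*, a neuregulin receptor gene, 13.4, 18.9, 14.5 and 0.256. *EGFR* had 42.2 in UW228 and 29.9 in D425, against 0 in MB002 and 0.497 in HDMB03, so it was not called. None of 11 SOX factor genes passed in either direction.

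**Figure D3:**
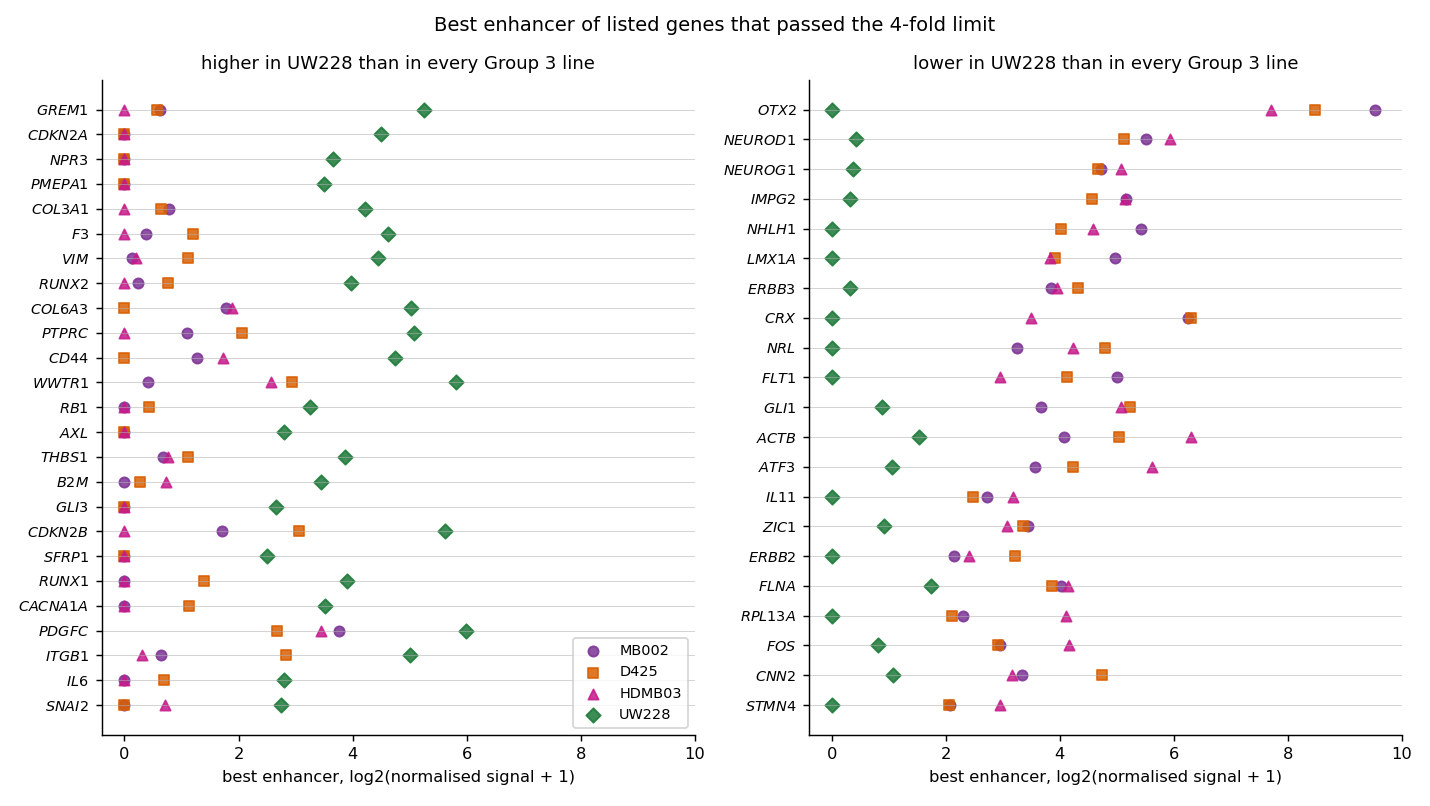
Of the 52 genes of the 19 lists that passed the limit, a part is plotted, 25 higher (left) and 21 lower (right) in UW228. Each has 1 point for each line at the log2 of the normalised signal plus 1 of its best enhancer, in order of the difference from the nearest Group 3 line. *GREM1* leads on the left and *OTX2* on the right, and D425 is the highest Group 3 line for 12 of the 25 genes plotted on the left.

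Markers of other cell types were mixed, and the counts below stand beside 4.33% higher and 6.50% lower of all genes. Of 12 epithelial markers, none passed, and their summed signal was 16.2 in MB002, 299 in D425, 11.7 in HDMB03 and 47.7 in UW228, with *KRT8* at 79.3 in D425 and 2.15 in UW228. The best enhancer assigned to *TP63* itself had 2.18, 6.13, 0.238 and 25.8, which did not pass. Of 10 blood and immune markers, *PTPRC*, which encodes the leukocyte phosphatase CD45, was higher, with 1.13, 3.18, 0 and 32.9, and 1 was lower, and the summed signal was 38.4 to 63.6 in the 4 lines. The myeloid master factor *SPI1* had 0.201 in UW228, and *CD3E*, *CD74*, *IKZF1* and *TYROBP* were at 0 there. Of 9 endothelial markers *FLT1* was lower, with 31.2, 16.5, 6.78 and 0, and of 11 glial ones 1 was higher. The summed signal of the endothelial list was 26.0 to 69.8, and that of the glial list 33.8 to 61.5. The defining genes *CDH5*, *OLIG2* and *EPCAM* had 3.37, 0 and 0.490 in UW228, but other members were strong there, 2 of the blood list, 2 of the glial list and 1 each of the endothelial and epithelial lists. Among 15 genes used in every cell type, *B2M* was higher and *ACTB* and *RPL13A* were lower, so a few calls of this size arose in that list too.

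**Figure D4:**
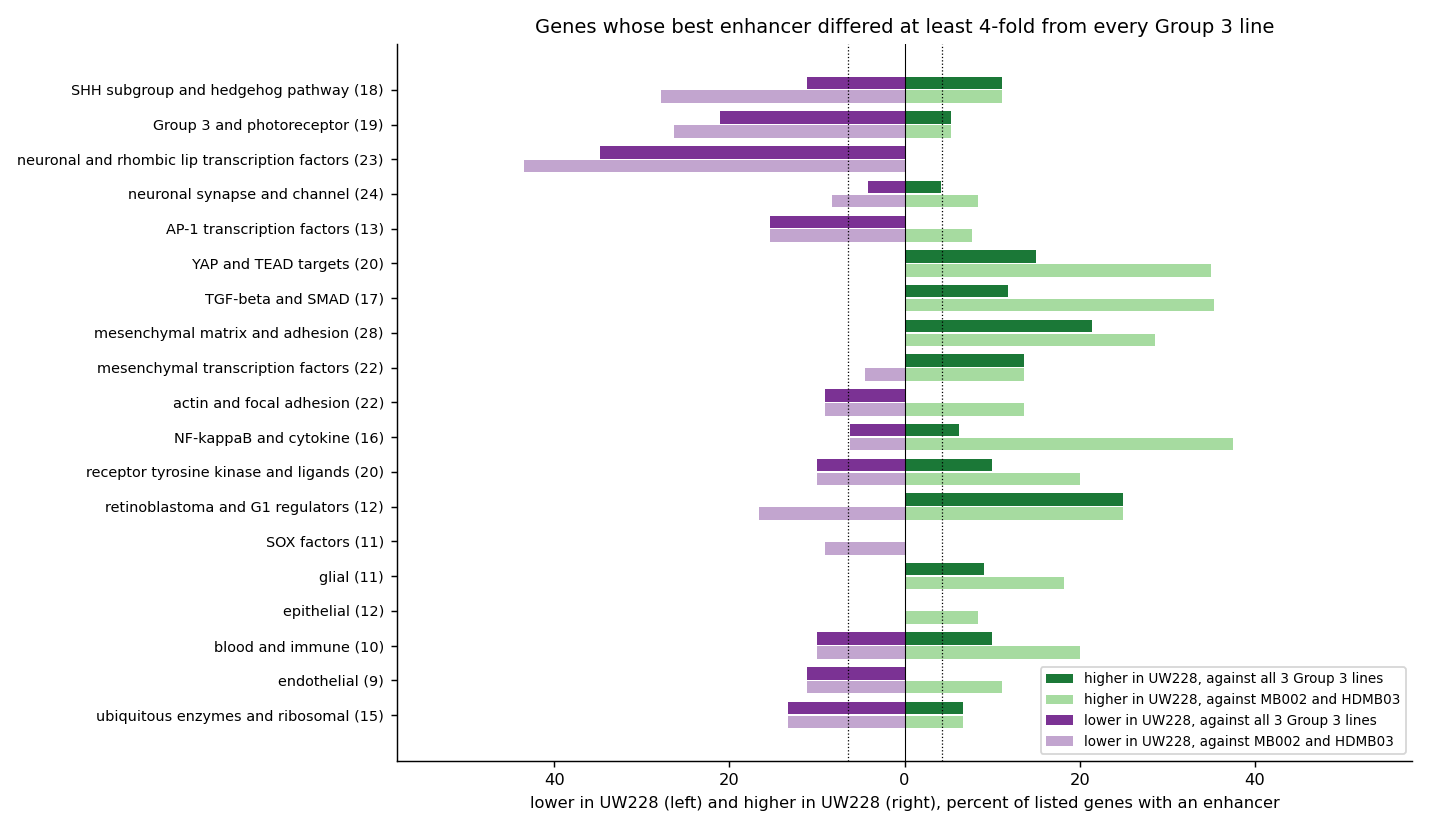
For each list, the share of genes with an enhancer (their number in brackets) whose best enhancer was at least 4 times higher (right) or lower (left) in UW228, against all 3 Group 3 lines (dark bars) or against MB002 and HDMB03 (light bars). Dotted lines give the shares over all genes against the 3 lines, 4.33% and 6.50%. The neuronal factor list reaches 34.8% on the left, and the TGF-beta, YAP and NF-kappaB lists lengthen on the right once D425 is left out, when the share over all genes also rises, to 7.61%.

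Motifs were counted in the central 300 bp of single-peak regions. There were 7268 such windows in regions of UW228 at loci with no Group 3 region, 4970 in regions at loci of all 3 Group 3 lines without UW228, 5429 at loci of all 4 lines, and 45480 in all. A Group 3 locus can give several windows, from different lines or from the same line. The windows are therefore not independent, and the intervals cover counting error alone. The letters match any sequence with them, whatever binds there.

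The AP-1 motif was in 21.5% of the windows of UW228 alone (20.5 to 22.4), 8.49% of those of the Group 3 lines alone (7.73 to 9.30), 13.0% of those of all 4 lines and 12.7% of all windows. The ratio of the first to the second share was 2.53 (2.28 to 2.80). The share was 7.40% in windows from MB002, 8.69% from D425 and 8.97% from HDMB03. These windows come from loci that all 3 lines share, so the 3 shares are not separate evidence. Regions of a single Group 3 line were not counted apart, whereas the windows of UW228 alone belong to a single line. The TEAD motif was in 18.8% against 15.0%, a ratio of 1.26 (1.16 to 1.36), with 17.2% in all windows.

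The other 3 motifs were rarer in the windows of UW228 alone. The proneural E-box was in 18.9% against 28.6%, a ratio of 0.659 (0.618 to 0.703), with 23.02% in all windows. The OTX and CRX letters were in 15.5% against 20.6%, a ratio of 0.752 (0.697 to 0.812), and they were in 11.6% against 15.9% without those inside a 10-letter stretch of the Alu consensus. The GC box was in 3.27% against 16.5%.

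Base composition moved with these shares. The median GC content was 40% in windows of UW228 alone and 49.0% in windows of the Group 3 lines alone. Among windows of 40 to 50% GC, a comparison added after the data were seen, the AP-1 motif was in 22.3% against 10.2%, the TEAD motif in 20.1% against 16.7%, the E-box in 21.5% against 32.7% and the OTX and CRX letters in 18.2% against 26.4%. The GC box was in 4.19% against 3.98% there, so its difference was not seen at like GC content.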

How the data were processed

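The libraries used were H3K27ac ChIP-seq and its input from MB002, D425, HDMB03 and UW228, 1 of each kind per line. The authors aligned reads with Bowtie 2 2.3.0 to GRCh38, converted the files with SAMtools 1.9, removed multi-mapped and duplicate reads with sambamba, called peaks with MACS2 2.2.6 and stitched them with ROSE, at a distance of 12 kb per the file headers, with promoter flanks excluded per the methods. The deposited signal of a region is reads per base pair normalised to mapped reads, times its length, for ChIP and for input. The deposited ranks are a score for the order of regions by net signal, and the SE calls are the authors' own. These are not counts, and the depth is unknown.

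Input was subtracted, and loci, genes and motifs were handled as given above in Python (3.11.15; numpy 2.4.6, scipy 1.17.1, pandas 2.3.3). Genes were the 27445 of 29985 curated entries of RefSeq whose strand GENCODE 44 gives. The steps were tested on simulated data. Named loci are the 12 strongest of each kind, and named genes are up to 4 of each list in each direction with the largest difference, plus the defining genes of the lists. The members, the 19 lists of 332 entries and the limits were chosen with earlier results of these data known. Alternatives were no input subtraction, other scalings, signal per base pair, local input, other limits, matching rules, assignments, pseudocounts and windows, and each Group 3 line left out. Some genes, loci and sequences are not reported here, though the counts include genes and loci that are not named.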

Additional observations from a re-analysis of the deposited data

How the results depend on the processing

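No paired analysis was possible because each line had 1 library and no comparison was a test. The 411 UW228 loci and 184 Group 3 loci became 1298 and 525 with strong set at 5, 80 and 57 with it at 20, and 244 and 122 with absence required. With signal per base pair they were 0 and 1, because the 99th percentile of that density was 3.57 to 7.55 times its median. The Group 3 loci were 52 with one divisor for all lines and 72 with no TSS within 2.5 kb. Leaving out a line gave 456 to 651 UW228 loci, the most without D425, and 280 to 537 Group 3 loci, the most without HDMB03 (355 without D425). The other settings for loci stayed within 1.5 times.

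The 1045 genes higher and 1568 lower in UW228 became 27 and 86 per base pair, of which 24 and 68 were among the main ones, 2081 and 3976 with a pseudocount of 0.1, 216 and 254 with one of 5, and 1671 and 643 with one divisor. The lower genes were 628 with the closest TSS alone, 841 with gene body overlap and the closest TSS, and 762 with no TSS within 2.5 kb. Leaving out a line gave 1268 to 1838 higher genes, the most without D425, and 2205 to 2860 lower ones, the most without HDMB03. The scaling by the 10000 strongest regions left the counts at 1224 and 1280.

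With an overlap of at least 0.5 of the shorter region, 78.5%, 73.4% and 83.5% of UW228 regions had no match in MB002, D425 and HDMB03. With windows of 600 bp, the ratio was 0.709 for the E-box and 0.236 for the GC box, and other motif settings stayed inside the intervals. Of 959 values of genes and loci under the alternatives, 584 moved by at most the SD of the log2 signal over the 3 Group 3 lines, 373 moved by more and 2 changed sign. Of 676 such values of the 52 listed genes called, 187 fell under the limit, among them 51 per base pair and 26 with the closest TSS alone. The sign changed for *ITGB1*, at -0.26 with the closest TSS alone and also with no TSS within 2.5 kb. Depth is unknown, so the smallest detectable region cannot be given.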

Other observations

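Genes induced by interferon stood out among the UW228 loci, and a list of 16 of them was looked up after several of those loci had been seen, so it is no independent evidence. Of the 16, 8 were higher in UW228 and none was lower, beside 4.33% and 6.50% of all genes, and 3 of the 8 share enhancers. *MX1*, an antiviral GTPase gene, had 8.80 in UW228 and no region in the Group 3 lines, *GBP5*, a guanylate-binding protein gene, 13.8 in UW228 and at most 0.0749, in MB002, and *EPSTI1* 11.7 in UW228, 1.01 in MB002 and 0 in the others. *DDX60L* had 11.1 in UW228 and 0.605 in HDMB03. *IFIT1*, *IFIT2* and *IFIT3* are neighbours that share enhancers, and *IFIT3* had 1.903 in MB002, 1.65 in D425, 0.265 in HDMB03 and 26.8 in UW228. *IRF1*, an inducing factor, did not pass, with 1.83 in MB002, 11.4 in D425, 5.87 in HDMB03 and 28.9 in UW228. *B2M*, also known to respond to interferon, was among the genes higher in UW228, with 0, 0.203, 0.652 and 9.84.

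Several genes had more than 1 of the 411 UW228 loci closest to them. *DPYD*, the pyrimidine catabolic enzyme gene, had 4, and *CITED2*, *DCBLD2*, *ETS1*, *FRMD5*, *GNAT3*, *KRR1*, *NOX3*, *TENM3*, *TP63* and *WWC1* had 3 each. These genes were named after their values were seen. *FAP*, the fibroblast activation protein gene, also named so, had 24.5 in UW228 and no region in any Group 3 line.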
